A study of Rattus norvegicus with 6 samples.

Results

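The ligands and receptors of the tumor necrosis factor (TNF) superfamily were described in colon RNA of 3 rats of the S.LEW congenic strain (called C1 to C3) and of 3 S rats (S1 to S3). A gene was taken as a member where its rat symbol was Tnf, Lta, Ltb, Ltbr, Fas, Faslg, Cd40, Cd40lg, Cd27 or Cd70, or began with Tnfsf or Tnfrsf followed by a number. The rule uses symbols and no measured value, but it was set with earlier results of these data known. Of the 40 rat genes that met the rule, 31 had a probe on the array, 14 ligands and 17 receptors, out of 15168 genes with a named probe. They were read by 35 of the 30367 probes, with 2 probes each for Cd40, Fas, Tnfrsf21 and Tnfrsf8. No probe was matched to the ligands Tnfsf8, Tnfsf13b and Tnfsf18 or to the receptors Tnfrsf10b, Tnfrsf11a, Tnfrsf13b, Tnfrsf13c, Tnfrsf22 and Tnfrsf26, and these 9 genes were not analysed here.

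Ligands of the superfamily are mostly membrane proteins that assemble as trimers and can be shed, and each one binds and clusters 1 or more receptors. Receptors that carry a death domain in their cytoplasmic part can recruit adaptors that activate caspases, and the others bind TNF receptor-associated factors (TRAFs) that lead to NF-kB signaling. In the gut, lymphotoxins organize lymphoid tissue, CD40 and its ligand pass help from T cells to B cells, and TNF itself is a product of macrophages and T cells in inflammation and in tumors.

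The S rat is the inbred Dahl salt-sensitive SS/Jr strain, and the congenic rat, S.LEW(10)x12x2x3x5, has the S genome except for a short piece of chromosome 10 taken from the normotensive Lewis (LEW) strain. All 6 rats were males. Every one, the S controls included, was given the colon carcinogen azoxymethane (AOM), 15 mg per kg in each of 2 weekly injections that started at 6 weeks of age. They ate a diet with 0.3% NaCl and were 30 weeks old when the opened and rinsed colon was taken, with 1 rat per array. Cages held 1 rat of each strain. No colon without AOM was among the samples, and the sources do not say whether the RNA came from tumors, from the tissue around them or from both. The comparison asks how the S.LEW congenic colon differs from the S colon under the same carcinogen.

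The arrays were Agilent arrays read in 1 color, and the level of a probe is given here as its log2 signal after quantile normalization, on which 1 unit is a doubling. Levels of different probes cannot be set against each other. A probe was called well above background on an array where more than 50% of its spots were flagged so by the scanner software, and it was tested where this held on at least 3 of the 6 arrays, which left 23971 probes. The array medians before normalization ran from 214 to 594 intensity units, with S1 (594) and S3 (445) the brightest and the others at 214 to 291. S1 and S3 also had the largest shares of spots well above background, 86.3% and 87.6% against 73.8% to 83.2%. The part of this difference between arrays in the levels below was not tested. The colon label was borne out by 9 of 9 measured colon epithelium markers, all well above background on every array. The 6 arrays did not separate by strain: S1 and S3 correlated at 0.980 over the tested probes, whereas S2 correlated at 0.900 with S1 and 0.936 with S3, and at 0.967 to 0.976 with the 3 congenic arrays. S2 therefore stood apart from the other S arrays, and most differences below are given with and without it. S2 was singled out after these signals were seen. Leaving out an S array that resembles the congenic arrays tends to widen the strain gap and narrow the spread among S rats. The p-values without S2 are thus descriptions and do not establish a strain difference. Colon tissue is a mixture of cells, so fewer cells of a type and less RNA per cell cannot be told apart.

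Several members lie side by side in the genome, and the arrays read these neighbors. Lta, Tnf and Ltb are adjacent on chromosome 20, and Cd27, Ltbr and Tnfrsf1a lie on chromosome 4 in that order, with 1 coding gene between neighboring members. The 250 bases before the start of Lta (chr20:3623277-3623526, plus strand), Tnf (chr20:3626435-3626684, plus strand), Ltb (chr20:3634055-3634304, minus strand), Cd27 (chr4:159721824-159722073, minus strand) and Ltbr (chr4:159801517-159801766, minus strand) are shown from RefSeq on GRCr8, because the genes on chromosome 20 were all high in the same 2 rats, whereas on chromosome 4 Cd27 was high and Ltbr low in them. Sequences run 5′ to 3′ on the gene's own strand, and capitals mark matches on either strand to GGGANNNNCC, the core letters of an NF-kB motif.
Lta: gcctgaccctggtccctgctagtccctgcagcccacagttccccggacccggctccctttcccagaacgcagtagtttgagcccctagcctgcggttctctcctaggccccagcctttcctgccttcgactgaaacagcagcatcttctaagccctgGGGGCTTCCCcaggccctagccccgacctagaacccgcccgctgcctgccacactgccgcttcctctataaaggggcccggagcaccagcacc
Tnf: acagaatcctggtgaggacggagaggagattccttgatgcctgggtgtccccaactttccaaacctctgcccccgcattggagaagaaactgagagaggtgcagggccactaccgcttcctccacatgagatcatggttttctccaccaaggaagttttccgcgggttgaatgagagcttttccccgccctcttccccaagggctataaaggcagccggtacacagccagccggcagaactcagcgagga
Ltb: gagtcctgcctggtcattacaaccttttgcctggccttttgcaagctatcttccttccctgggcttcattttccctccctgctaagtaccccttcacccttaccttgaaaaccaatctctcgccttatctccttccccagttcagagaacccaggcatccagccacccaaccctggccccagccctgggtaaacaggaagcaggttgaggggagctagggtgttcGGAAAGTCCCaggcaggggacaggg
Cd27: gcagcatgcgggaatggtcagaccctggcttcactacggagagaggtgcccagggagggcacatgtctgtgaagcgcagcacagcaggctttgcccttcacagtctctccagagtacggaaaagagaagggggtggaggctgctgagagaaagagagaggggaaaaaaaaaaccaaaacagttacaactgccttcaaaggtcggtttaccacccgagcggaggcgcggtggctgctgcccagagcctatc
Ltbr: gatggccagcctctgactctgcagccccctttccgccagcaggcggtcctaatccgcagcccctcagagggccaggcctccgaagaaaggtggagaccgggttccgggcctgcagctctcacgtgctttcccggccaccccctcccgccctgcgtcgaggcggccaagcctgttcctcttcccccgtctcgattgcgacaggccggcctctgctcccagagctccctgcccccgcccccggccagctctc

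The motif stood in the shown stretches of Lta and Ltb, where it was on the opposite strand, and not in those of Tnf, Cd27 and Ltbr. Of the 31 members, 23 had such a stretch in the RefSeq table, and 6 of them (26.1%) held the motif, namely Fas, Faslg, Lta, Ltb, Tnfrsf8 and Tnfsf14. It stood in 19.4% of the 12918 genes with a probe and in 16.4% of all 33469 stretches. A match describes letters only and shows no binding site.

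The S rats differed among themselves at many members. Their range exceeded that of the congenic rats at 26 of the 35 member probes (74.3%), where it did at 64.9% of all probes. S1 and S3 were the 2 highest of the 6 arrays at 18 of the 35 member probes, where 23.4% of all probes on the array had this order, and they were the 2 lowest at 5 member probes, where 28.0% did. By gene, with the brightest probe of each, 17 of 31 members were highest in S1 and S3, 8 of 14 ligands and 9 of 17 receptors. The 4 genes that were lowest there, Ltbr, Tnfrsf11b, Tnfrsf12a and Tnfrsf21, were all receptors. The 3 S rats spanned more than 2 log2 units at 18 member probes and the 3 congenic rats at 4. The share of all probes with such spans was not counted. Some spans include signals that were not above background, such as that of Cd27 in S2 (2.81), so their size is uncertain.

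**Figure D1:**
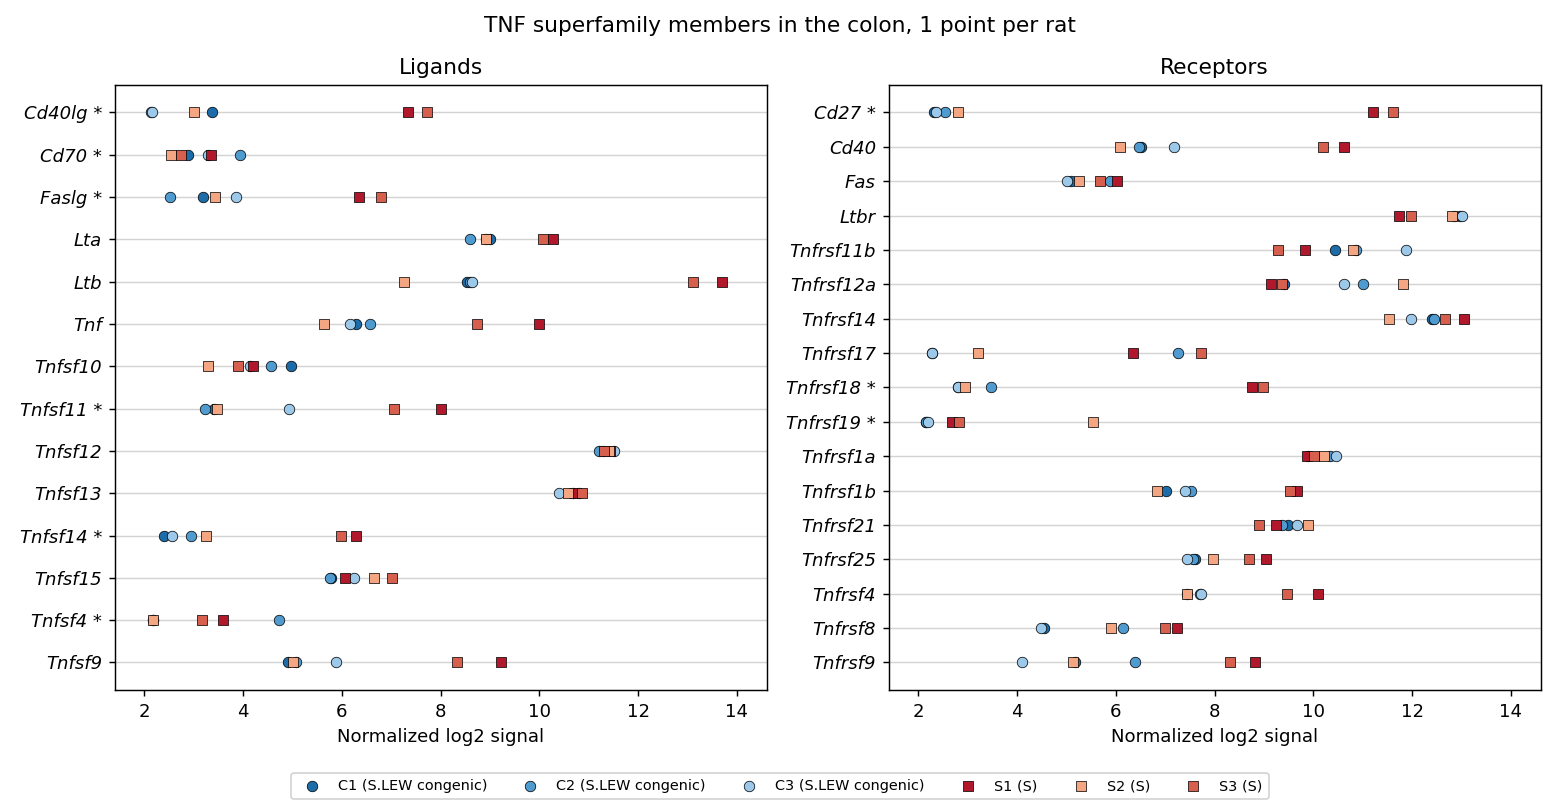
Normalized log2 signal (x axis) of the 14 ligands (left) and 17 receptors (right) in each rat, with the brightest probe of each gene and 1 point per rat, circles for S.LEW congenic rats and squares for S rats. Signals can be read along a row but not between rows, and an asterisk marks a gene whose probe was not tested because it was well above background on fewer than 3 arrays. In rows such as Ltb, Cd40 and Cd27, S1 and S3 lie far to the right and S2 lies with the congenic rats.

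Past the cut-offs of the study, an unadjusted p under 0.05 with at least a 2-fold change, 2 of the 25 tested member probes were lower in the congenic strain, Tnfrsf25 and 1 of the 2 probes of Tnfrsf8, and 0 were higher. Over all tested probes 2.35% were lower and 3.23% were higher by the same rule. With an adjusted p under 0.05 by limma, no member was called, and 0% of all tested probes were, while 3 member probes had an unadjusted p under 0.05. The methods' t-test called 1 member probe lower, that of Tnfrsf25, and 0.718% of all tested probes. With normexp background correction in place of that of the scanner software, both calls were lost, with log2 fold changes of -0.84 for Tnfrsf25 and -0.75 for Tnfrsf8. The median log2 fold change, congenic over S, was -0.78 over the 22 tested member genes, -0.78 over the 8 ligands and -0.68 over the 14 receptors, beside 0.01 over all tested probes. These medians turn on the filter, which lets in dim members through the S arrays. Over members well above background on all 6 arrays they were -0.14 for all members and 0.0060 for receptors, but -0.91 for the 5 ligands left. With no filter they were -1.36 for all members and for receptors, and -1.35 for ligands. The strains did not overlap at 1 tested member probe that was lower in the congenic rats (Tnfrsf25) and at 1 that was higher (Ltbr), where 5.31% and 12.4% of all tested probes were so ordered. With 3 rats a strain the smallest p that an exact permutation test can give is 0.1, so no such test is given for single members. The small number of arrays limits how precise each value below is.

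S2 was singled out after its signals were seen, so the counts without it are descriptions. They were 11 of 25 member probes lower, from 10 genes, and 2 higher (Ltbr and Tnfrsf11b), by the same cut-offs. Over all tested probes 7.20% were then lower and 10.0% higher. At an adjusted p under 0.05 by limma the counts without S2 were again 11 lower and 2 higher, where 10.7% and 12.5% of all tested probes were called. The lower probes were the same 11 by both rules, those of Ltb, Tnf, Lta, Tnfsf9, Tnfrsf9, Tnfrsf4, Tnfrsf1b, Tnfrsf25, 1 of Tnfrsf8 and both of Cd40. Those of Tnfsf9, Tnfrsf9 and Tnfrsf8 were well above background on every S array but on only 2, 2 and 1 congenic arrays. The count of lower member probes was 0 without S1, without S3 and without C3, where 1.37%, 0.776% and 1.47% of all tested probes were lower. It was 1 without C1 and 3 without C2, where 2.22% and 1.41% of all tested probes were lower.

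**Figure D2:**
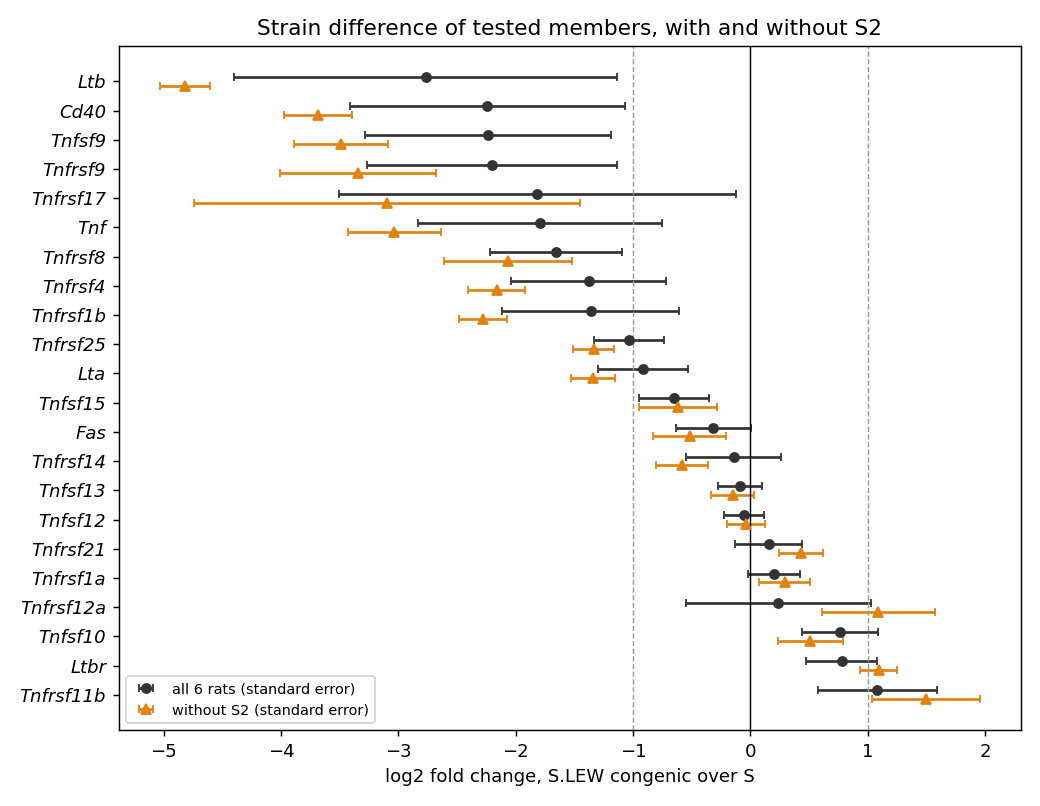
log2 fold change of the 22 tested member genes (brightest probe of each; x axis, S.LEW congenic over S) over all 6 rats (circles) and without S2 (triangles), with standard errors as bars and dashed lines at a 2-fold change. For Ltb the value was -2.77 over all 6 rats and -4.82 without S2, while those of Tnfsf12 and Tnfsf13 stayed near 0.

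Of the lymphotoxin and TNF cluster, the 3 ligands were high in S1 and S3 and lower in the other 4 rats. Ltb encodes lymphotoxin beta, which anchors lymphotoxin alpha at the membrane of lymphocytes. Its log2 signal was 8.53, 8.60 and 8.63 in the congenic rats, against 13.70 (S1), 7.25 (S2) and 13.11 (S3). S2 was thus the lowest of the 6 rats and S1 and S3 the highest, so the strains overlapped. This gave a log2 fold change of -2.77 with a standard error (SE) of 1.64 and an adjusted p of 0.471 by limma. Without S2 it was -4.82 (SE 0.21, adjusted p = 0.00075 by limma).

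Tnf itself had log2 signals of 6.28, 6.56 and 6.16 in the congenic rats, against 10.00 (S1), 5.64 (S2) and 8.74 (S3). S2 was again below every congenic rat. For Tnf the log2 fold change was -1.79 (SE 1.04, adjusted p = 0.466 by limma), and without S2 it was -3.03 (SE 0.39, adjusted p = 0.0108 by limma). Lta, the soluble and membrane-bound lymphotoxin alpha, had the smallest spread of the 3, with 9.0025, 8.61 and 8.93 in the congenic rats and 10.29, 8.91 and 10.08 in the S rats. Its log2 fold change was -0.91 (SE 0.38) over all rats and -1.34 (SE 0.19, adjusted p = 0.0128 by limma) without S2. None of these 3 ligands passed the cut-offs with all 6 rats.

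The receptors of these ligands did not share 1 order. Tnfrsf1b, the TNF receptor without a death domain, which is carried mainly by leukocytes and endothelium, read 7.02, 7.52 and 7.41 in the congenic rats and 9.67, 6.83 and 9.52 in the S rats. Its log2 fold change was -1.36 (SE 0.75, adjusted p = 0.452 by limma) and -2.28 without S2 (SE 0.20, adjusted p = 0.00425 by limma). Tnfrsf1a, the widely expressed TNF receptor with a death domain, read 9.89, 10.34 and 10.45 in the congenic rats and 9.87, 10.21 and 10.01 in the S rats. The strains overlapped, and all 6 values of Tnfrsf1a lay within 1 log2 unit of each other. Its log2 fold change was 0.20 (SE 0.22, adjusted p = 0.661 by limma), and C1 minus the S mean, the only strain comparison on arrays of 1 scan time, was -0.13.

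Ltbr, the lymphotoxin beta receptor of epithelial and stromal cells, ran opposite to its ligand. It read 12.98, 12.85 and 13.02 in the congenic rats, against 11.74 (S1), 12.80 (S2) and 11.97 (S3). Every congenic rat was above every S rat, although S2 was only just below C2. The log2 fold change of Ltbr was 0.78 (SE 0.30, unadjusted p = 0.0390, adjusted p = 0.371 by limma), under the 2-fold cut-off. Without S2 it was 1.09 (SE 0.16, adjusted p = 0.0138 by limma). Cd27, its neighbor on chromosome 4, had the opposite order, as given below.

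Several costimulatory ligands and receptors of lymphocytes and antigen-presenting cells were likewise high in S1 and S3. Cd40, the receptor by which B cells, macrophages and dendritic cells receive the signal of T cells, was read by 2 probes, both highest in S1 and then S3. The brighter probe gave 6.51, 6.47 and 7.19 in the congenic rats and 10.63, 6.08 and 10.19 in the S rats, and the other gave 6.70, 6.08 and 7.18 against 10.85, 5.97 and 10.19. S2 was the lowest rat at both. The log2 fold changes of Cd40 were -2.24 (SE 1.17, adjusted p = 0.436 by limma) and -2.34 (SE 1.24, adjusted p = 0.441 by limma), and without S2 they were -3.68 and -3.86.

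Tnfsf9 and Tnfrsf9 are the ligand and receptor of the 4-1BB system, which prolongs the response of activated T cells. Tnfsf9 read 4.91, 5.08 and 5.88 in the congenic rats and 9.22, 5.02 and 8.34 in the S rats. Tnfrsf9 read 5.18, 6.40 and 4.10 in the congenic rats and 8.82, 5.14 and 8.32 in the S rats. Both were high in S1 and S3 only, and each was well above background on 2 congenic arrays and on all S arrays. The log2 fold change of Tnfsf9 was -2.24 (SE 1.05, adjusted p = 0.407 by limma) and -3.49 without S2 (adjusted p = 0.00819 by limma). That of Tnfrsf9 was -2.20 (SE 1.06, adjusted p = 0.411 by limma) and -3.34 without S2 (adjusted p = 0.0264 by limma).

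Tnfrsf4 encodes OX40, a receptor of activated T cells, and read 7.43, 7.70 and 7.73 in the congenic rats against 10.10, 7.44 and 9.46 in the S rats. OX40 had a log2 fold change of -1.38 (SE 0.66, adjusted p = 0.410 by limma), and -2.16 (adjusted p = 0.00780 by limma) without S2. Its ligand Tnfsf4 was well above background on no array, so that only the receptor of this pair was measured. Tnfrsf8, the CD30 receptor of activated lymphocytes, was 1 of the 2 genes past the cut-offs. Its brighter probe read 4.54, 6.15 and 4.48 in the congenic rats and 7.24, 5.90 and 7.003 in the S rats. It was above background in C2 and in every S rat. C2 lay above S2, so the strains overlapped.

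At that probe Tnfrsf8 had a log2 fold change of -1.66 (SE 0.56, unadjusted p = 0.0240, adjusted p = 0.343 by limma). Only 1 of the 3 congenic values was well above background, so no fold is given. The call was lost without C1, without C3, without S1 and without S3, with values of -1.40, -1.37, -1.40 and -1.51. The second probe of Tnfrsf8 read 2.45, 6.36 and 2.68 against 6.89, 2.32 and 5.92, and its log2 fold change was -1.21 (SE 1.49). The 2 probes thus agreed in sign but not in the call.

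Tnfrsf25, the death receptor DR3 of T cells, was the other gene past the cut-offs and the only tested member whose strains did not overlap on the lower side. It read 7.61, 7.57 and 7.44 in the congenic rats and 9.05, 7.97 and 8.71 in the S rats. The 3 congenic values lay within 0.18 log2 units of each other, and among the S rats S2 had the lowest value. Its log2 fold change was -1.03 (SE 0.30, unadjusted p = 0.0120, adjusted p = 0.303 by limma), or 2.05-fold lower. It dropped below the 2-fold cut-off without S1 (-0.80), without S3 (-0.97) and without C3 (-0.98). Tnfsf15, the ligand of DR3, read 5.77 to 6.24 in the congenic rats and 6.07 to 7.03 in the S rats, with a log2 fold change of -0.65 (SE 0.29).

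A further 7 probes, from 7 genes, were well above background on S1 and S3 and on no other array, and so were not tested. Apart from Faslg, these genes were picked for display after their values were seen. For such probes only a bound can be given. It sets the mean of the S rats against the mean, in the congenic rats, of the larger of the probe's own signal and the dimmest signal that was well above background on that array. S2 was not well above background at these probes and entered the mean of the S rats at its own signal. The bounds that include S2 hold only if that signal is taken as read, and only those without S2 rest on detected S signals. Cd27, a receptor of T cells and memory B cells, read 2.31, 2.55 and 2.37 in the congenic rats and 11.20, 2.81 and 11.61 in the S rats. All congenic values were below that of S2, which was itself not above background. With S2 taken as read, the congenic level of Cd27 was at least 11.2-fold below the mean of the S rats. The bound was 81.7 without S2, 4.46 without S1 and 3.87 without S3.

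Tnfrsf18, the GITR receptor of regulatory and activated T cells, read 2.81, 3.47 and 2.81 in the congenic rats and 8.77, 2.95 and 8.97 in the S rats, at least 3.59-fold lower in the congenic strain. The bound of Tnfrsf18 was 14.1 without S2, 1.88 without S1 and 1.75 without S3. Cd40lg, the ligand of CD40 on helper T cells, read 3.37, 2.15 and 2.16 against 7.33, 3.01 and 7.74, at least 1.96-fold lower, with a bound of 5.59 without S2, 1.25 without S1 and 1.09 without S3. Tnfsf11 encodes RANKL, a ligand that also takes part in the formation of lymphoid organs, and read 3.42, 3.24 and 4.92 against 8.02, 3.48 and 7.05. It was at least 2.19-fold lower, with a bound of 5.59 without S2, 1.16 without S1 and 1.62 without S3. In each of these 3 genes S2 lay inside the range of the congenic rats.

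Faslg, the ligand that triggers cell death through Fas, read 3.19, 2.53 and 3.86 in the congenic rats and 6.35, 3.44 and 6.79 in the S rats, at least 1.39-fold lower. The bound of Faslg was 2.86 without S2 and 1.04 without S1, and none could be given without S3. Tnfsf14, the LIGHT ligand, read 2.40, 2.95 and 2.56 against 6.29, 3.24 and 5.99, at least 1.09-fold lower. The bound of Tnfsf14 was 2.12 without S2, and none could be given without C1, without S1 or without S3. Its probe was among those whose strains did not overlap, though only S1 and S3 were well above background. The last of the 7 was the dimmer probe of Fas, for which no fold can be given.

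Of the members linked to cell death, Fas did not share the full order of its ligand, since C2 lay between S1 and S3 at both Fas probes. The dimmer Fas probe, above background in S1 and S3 alone as Faslg was, read 3.49, 4.83 and 4.07 against 5.19, 3.89 and 4.72. Its brighter probe read 5.10, 5.88 and 5.02 in the congenic rats and 6.03, 5.25 and 5.68 in the S rats, which overlapped. For Fas the log2 fold change was -0.32 (SE 0.32, adjusted p = 0.634 by limma), and -0.52 without S2. Tnfsf10, the TRAIL ligand, was dim, well above background on C1, S1 and S3, and read 4.96, 4.57 and 4.14 against 4.20, 3.28 and 3.90. Its log2 fold change was 0.77 (SE 0.32, adjusted p = 0.387 by limma), and C1 minus the S mean was 1.17. Tnfrsf21, the death receptor DR6, was lowest in S1 and S3 at both of its probes, with log2 fold changes of 0.15 (SE 0.29) and 0.27 (SE 0.36). Without S2 the value at its dimmer probe was 0.67 (adjusted p = 0.0495 by limma), the only higher member besides Ltbr at that threshold.

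Tnfrsf11b encodes osteoprotegerin, a secreted receptor that binds RANKL and TRAIL. It read 10.43, 10.87 and 11.87 in the congenic rats and 9.83, 10.80 and 9.29 in the S rats, with S2 between C1 and C2. The resulting log2 fold change was 1.08 (SE 0.51, adjusted p = 0.408 by limma), 1.495 without S2 (SE 0.46, adjusted p = 0.0670 by limma) and 1.39 without C1, and these last 2 values passed the cut-offs. It was 0.68 without C3 and 0.74 without S3. C1 minus the S mean was 0.46. Tnfrsf11b was thus low in the rats in which its ligand Tnfsf11 was high.

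Tnfrsf17, the BCMA receptor of plasma cells, was well above background in C2, S1 and S3. It read 2.28, 7.26 and 2.29 in the congenic rats and 6.35, 3.20 and 7.72 in the S rats. The log2 fold change was -1.82 (SE 1.69, adjusted p = 0.610 by limma), -3.10 without S2 and -0.84 without S3. It was -3.48 without C2, where only a bound of at least 1.995-fold lower can be given, with the undetected signal of S2 taken as read. This gene departed from the order of most members in that 1 congenic rat was high. Its ligand Tnfsf13, known as APRIL, read 10.4 to 10.8 in the congenic rats and 10.6 to 10.9 in the S rats, with a log2 fold change of -0.09 (SE 0.19).

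The remaining members were called in neither direction or were not tested. Tnfsf12, the TWEAK ligand, read 11.2 to 11.5 in all 6 rats, with a log2 fold change of -0.05 (SE 0.17). Its receptor Tnfrsf12a, induced in injured epithelium, read 9.41 to 11.001 in the congenic rats and 9.13 to 11.8 in the S rats, and its log2 fold change was 0.24 (SE 0.79), with C1 minus the S mean at -0.69. Leaving out 1 rat moved Tnfrsf12a between -0.25 (without S1) and 1.09 (without S2), so its sign was not settled. Tnfrsf14, the HVEM receptor of LIGHT, read 12.0 to 12.4 against 11.5 to 13.0, and its log2 fold change was -0.14 (SE 0.41), -0.58 without S2 and 0.17 without S1. Tnfrsf19, a receptor of epithelial progenitors, was well above background in S2 alone, with a log2 signal of 5.54 there. Cd70, the ligand of CD27, was well above background on no array.

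Set side by side, 16 ligand and receptor pairs had a probe for both partners. Both partners were highest in S1 and S3 in 5 pairs, those of Tnf with Tnfrsf1b, Lta with Tnfrsf1b, Cd40lg with Cd40, Tnfsf9 with Tnfrsf9 and Tnfsf14 with Tnfrsf14. The ligand was highest and the receptor lowest in these rats in 3 pairs, Ltb with Ltbr, Tnfsf14 with Ltbr and Tnfsf11 with Tnfrsf11b. Pairs that share a gene are not independent, and no test was made on these counts. Of the members with a probe, Tnfrsf17, Tnfrsf12a, Tnfsf13 and Tnfsf12 lie on chromosome 10, as does the Lewis segment, but 300 or more coding genes separate each of them from Rffl, the gene that the study places in the segment. None of the 4 passed the cut-offs.

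The proteins that act directly below the receptors were taken as a list of 25 adaptors, kinases and regulators, of which 21 had a probe, all well above background on all arrays. With all 6 rats 0 of the 21 were called in either direction, where 2.35% of all tested probes were lower and 3.23% higher. Without S2 the counts were 4 lower and 0 higher, where 7.20% and 10.0% of all tested probes were. S1 and S3 were the highest 2 rats in 18 of the 21, where 23.4% of all probes had this order, and the median log2 fold change was -0.40. Cflar, the inhibitor of caspase activation at death receptors, read 7.16 to 7.37 in the congenic rats and 9.90, 7.25 and 9.32 in the S rats, and its log2 fold change was -1.53 (SE 0.66, adjusted p = 0.390 by limma) and -2.32 without S2. Birc3, an inhibitor of apoptosis that binds TRAF proteins, had a log2 fold change of -1.25 (SE 0.69) and -2.10 without S2. Casp8, the first caspase of the death receptors, had one of -0.95 (SE 0.74) and -1.85 without S2. Cflar, Birc3 and Casp8 were named because their log2 fold changes were the lowest of the 21. The adaptors Fadd (0.45, SE 0.23) and Tradd (0.13, SE 0.17) went the other way and were not called. Of the superfamily receptors that the symbols leave out, Relt was lower past the cut-offs, with 6.06, 6.21 and 6.21 against 9.80, 6.15 and 9.33 and a log2 fold change of -2.26 (SE 0.92, adjusted p = 0.382 by limma) and -3.40 without S2, while Edar (0.04) and Ngfr (0.35) were not called.

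The markers of lymphocytes and of lymphoid tissue were high in the same rats as 17 of the 31 members. S1 and S3 were highest in 7 of 7 T cell markers, 5 of 6 B cell markers and 5 of 5 markers of lymphoid tissue stroma, such as the chemokines Cxcl13 and Ccl19. Of all probes on the array, 23.4% had this order. The summed linear signal of the T cell markers was 1235 to 1804 in the congenic rats, with 11913 (S1), 1656 (S2) and 12603 (S3) in the others. That of the B cell markers was 1260 to 1829 in the congenic rats, with 45874 (S1), 1713 (S2) and 30858 (S3), and that of the lymphoid stroma 1245 to 4684, 58327, 6270 and 43623. In the low rats 3 of 7 T cell and 3 of 6 B cell markers were still well above background, as on all 6 arrays. Of these B cell markers Pax5 did not follow the rest, with 10.26, 10.00 and 9.98 in the congenic rats and 10.04, 10.47 and 9.77 in the S rats. Pax5 had the largest signal in the B cell sums of C1, C2, C3 and S2, so those sums rest largely on it. Cd3e and Cd2 of the T cells and Cd79b and Blk of the B cells were well above background in S1 and S3 alone, as were Cd27, Cd40lg and Tnfrsf18.

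Plasma cell markers were highest in S1 and S3 in 2 of 4 genes, where 23.4% of all probes had this order, and Sdc1 was lowest there. Their summed signal ran the other way, at 9328 to 10612 in the congenic rats and 6184, 6977 and 6454 in the S rats. Macrophage markers were highest in S1 and S3 in 6 of 8 genes, with summed signals of 7312 to 10804 in the congenic rats and 24537, 7179 and 20503 in the S rats. Cd163 went the other way, with 6.67, 7.98 and 7.88 in the congenic rats and 4.88, 6.40 and 5.69 in the S rats. It was higher past the cut-offs, with a log2 fold change of 1.86 (adjusted p = 0.284 by limma). Adgre1 followed neither order (log2 fold change 0.45, SE 0.32). Neutrophil markers were highest in S1 and S3 in 0 of 4 genes, of which 2 were well above background on all arrays. Their summed signal was 173 to 188 in the congenic rats and 149, 178 and 276 in the S rats. Endothelium markers were highest in S1 and S3 in 2 of 5 genes and skeletal muscle markers in 1 of 4, beside 23.4% of all probes. Smooth muscle markers were lowest in S1 and S3 in 6 of 6 genes, where 28.0% of all probes were. Their summed signal was 541832 to 608070 in the congenic rats and 177137, 641103 and 373708 in the S rats. The summed signal of the colon epithelium markers was lower in all S rats, S2 included, at 69707 to 78311 against 140150 to 198218 in the congenic rats, although single markers such as Epcam and Krt8 overlapped between the strains. The part of these differences in tissue makeup in the levels of the superfamily members was not tested.

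**Figure D3:**
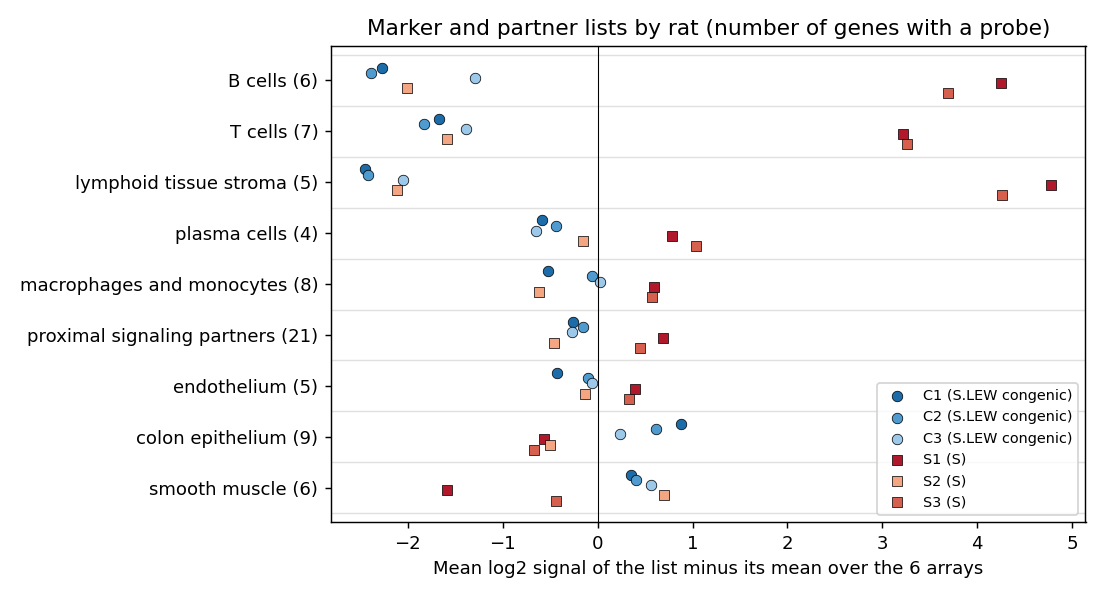
Mean log2 signal of the marker lists and of the signaling partners, minus the mean of each list over the 6 arrays (x axis). The neutrophil and skeletal muscle lists are not plotted. There is 1 point per rat, circles for S.LEW congenic and squares for S rats, and the number of genes with a probe is in parentheses. For T cells, B cells and lymphoid tissue stroma S1 and S3 lie more than 3 log2 units above the mean, and S2 lies below it with the congenic rats.

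The arrays had 2 scan times, 1 for C1 and the 3 S arrays and the other for C2 and C3. Arrays of 1 scan time were taken as 1 slide, which was not checked in another way. The strain difference within such a slide is C1 minus the mean of the S rats. It was -2.82 for Ltb, -2.45 for Cd40, -1.85 for Tnf, -2.62 for Tnfsf9 and -0.96 for Tnfrsf25, of the same sign as over both slides. C1 is the only congenic array on that slide, so these differences have no replicate on the congenic side. Tnfrsf1a, Tnfrsf12a and Tnfsf13 had the opposite sign within the slide, with differences of -0.13, -0.69 and 0.09.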

How the data were processed

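RNA of 6 colons was read on 1-color Agilent arrays. The deposited scanner files, made by the authors with Feature Extraction 11.0.1.1, hold background-corrected intensities that are not normalized between arrays. The deposited table holds log2 values that the authors quantile-normalized and kept where detected in at least 3 of 6 samples. It gave the same values closely (correlation at least 0.9999 for each array) and served as an alternative.

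Spots that are controls, or that the scanner software flagged as population outliers or non-uniform, were left out, log2 intensities of the spots of a probe were averaged, and arrays were quantile-normalized. The strain difference was fitted without covariates by lmFit and eBayes of limma 3.58.1 (R 4.3.3; 3 arrays a strain) on 23971 probes, with Benjamini-Hochberg adjustment over all of them. The code was tested on simulated data. The methods' t-test was unpaired. The brightest probe stood for a gene in lists. Of 30367 probes, 18005 were named through RefSeq accessions (GRCr8). The array was designed on another build, so coordinates are those of the RefSeq genes only. Plots used matplotlib 3.10.9.

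The members, gene lists and settings were chosen with earlier results of these data known. Members named with all values were those past the cut-offs, those with a log2 fold change of at least 1 in size, those whose strains did not overlap, and Tnf, Tnfrsf1a, Tnfrsf1b, Fas, Faslg and Tnfsf10. Lta, the neighbor of Tnf and Ltb, was added after its values were seen, and so were the untested members given with all values. The labels do not say that the rats were from separate litters, so p-values measure the spread between these animals. Alternatives were 75th percentile scaling, normexp (offset 50), the deposited values, other filters, flagged spots kept, slide (taken from scan time) or replicate number as a block, and leaving out each rat.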

Additional observations from a re-analysis of the deposited data

How the results depend on the processing

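The counts of called member probes depended on the filter and on single rats. Against 2 lower with all settings as reported, there were 1 by the methods' t-test, 5 with no filter on dim probes, 0 with normexp, 1 with the slide as a block and 1 with the filter at all 6 arrays. Leaving out 1 rat gave 0 to 11 lower, the 11 without S2, and 0 to 2 higher, and the slide block gave 1 higher. With the filter at 2 arrays, chosen after the data were seen, 6 were lower, and without S2 as well 17 lower and 2 higher. That filter adds 7 probes that entered through S1 and S3 alone, where they are high, so their calls support nothing. The share of all probes called lower was counted for the methods' t-test and with each rat left out, as given above. It was not counted for the other filters and settings, so their member counts cannot be judged against it. Lower signaling partners numbered 1 with 75th percentile scaling, 1 with normexp and 1 with the replicate block, 0 to 4 when a rat was left out, and 4 with the filter at 2 arrays without S2. The median log2 fold change was -1.36 (all members), -1.35 (ligands) and -1.36 (receptors) with no filter. It was -0.14 (all), -0.91 (ligands) and 0.0060 (receptors) with the filter at all 6 arrays. With the filter at 2 arrays it was -1.37, -2.01 and -1.20, and without S2 as well -2.11, -3.21 and -1.70. These filters differ in which members enter. With the slide as a block, in which C1 is the lone congenic array and is assumed to vary like the others, Tnfrsf1a (-0.13), Tnfrsf12a (-0.69) and Tnfsf13 (0.09) changed sign.

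The labels do not say whether an S rat and a congenic rat of the same number shared a cage. Their deviations from the strain means correlated at -0.02, -0.13 and -0.06, which cannot settle this with 3 rats a strain. With the replicate block 3 member probes were lower, and the share of all probes was not counted. Tnfsf9 passed the cut-offs there (-2.24) and Tnfrsf8 did not. Signal over background limits the 10 untested member probes, and 8 tested ones were well above background on fewer than 3 congenic arrays.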
